A study of Mus musculus with 5 samples.

Results

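The annexin genes of mouse embryonic stem (ES) cells were examined in wild-type cells and in cells deficient in Dicer, the enzyme that makes mature microRNAs from their precursors. The 10 genes were Anxa1, Anxa2, Anxa3, Anxa4, Anxa5, Anxa6, Anxa7, Anxa8 and Anxa11, with S100a10, the S100 protein that pairs with annexin A2. They were found by symbol among 19938 genes with a probe set (the group of array probes that reads a gene) of their own, and all 10 were measured, through 11 probe sets. For each gene the probe set used was chosen by the highest mean over the 5 arrays. The family itself was selected on earlier results of these data, in which Anxa3 had the largest rise of any gene, so the change of Anxa3 is described here without a test. The other 9 genes entered by family and partnership, in a list drawn up with earlier results of these data known. That list leaves out the annexins Anxa9, Anxa10 and Anxa13, which are described further below. The tests of the 9 genes bear on each gene and not on the family.

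Both lines grew feeder-free in equal parts of serum medium with LIF and serum-free N2B27 medium with 2i inhibitors, and RNA came from asynchronous populations. Wild-type cells had 3 arrays and Dicer-deficient cells had 2; early G1 cells and the remaining Dicer-deficient replicate were not analysed here. The submitters call the replicates biological, without saying whether they were separate lines or clones, so p-values measure the spread between these samples. The labels name neither the cell line, the Dicer allele nor the clone, so an effect of Dicer loss and any other difference of the lines cannot be told apart. Values are read as log2 signals, on which a difference of 1 is a doubling; no source used here states the log base, and another base would rescale every fold.

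Annexins are soluble proteins that bind acidic phospholipids on the inner face of membranes when calcium rises. They bridge membranes to each other and to actin, take part in endocytosis and exocytosis, and gather at wounds of the plasma membrane. Annexin A1 mediates anti-inflammatory effects of glucocorticoids, annexin A2 forms a tetramer with S100a10 that binds plasminogen at the cell surface, and annexin A5 is the familiar probe for phosphatidylserine on dying cells.

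Dicer1 itself had signals of 8.84, 8.82 and 8.85 on the wild-type arrays and 7.20 and 6.84 on the Dicer-deficient arrays, lower in every library labelled deficient. The array medians over all probe sets ran from 5.39 to 5.45, and precision is limited by there being 5 arrays. All 8 ES cell markers examined had signals above the array median on all 5 arrays. Of these, 2 fell, Esrrb by 0.72 and Tdgf1 by 0.70 on the log2 scale (limma adjusted p = 0.00655 and 0.00168), and 6 did not pass the test, among them Pou5f1, Nanog and Sox2. Feeder fibroblast markers had summed log2 signals of 49.58 to 51.16 in wild type and 50.09 to 50.47 in deficient cells. Of the 10 genes, 5 lay above the array median on every array: Col1a1, Col1a2, Col3a1, Thy1 and Twist1. Postn, Lum and Fap lay below the lower quartile on every array. None of the 10 genes was called by limma. At an unadjusted limma p under 0.05, 1 of these 10 genes passed, Pdgfrb, which was lower. The share of all genes at that unadjusted level was not computed, so this count has no yardstick. Of 10 genes listed as trophectoderm markers, 4 rose, Gata3 and the keratin genes Krt8, Krt18 and Krt19, while 6 did not pass, and the median log2 change was 0.06. Among those 6, a further keratin gene, Krt7, had a change of 0.04. Cdx2, Elf5, Tfap2c and Hand1 had changes of 0.06, 0.06, -0.03 and -0.05. Eomes had -0.49 (limma adjusted p = 0.0977), with both deficient values below every wild-type value. The summed log2 signal of the list was 60.05 to 61.65 in wild type and 63.92 to 64.52 in deficient cells. Of 9 mesoderm genes 5 rose and 4 did not pass, with a median of 0.31 and sums of 48.25 to 49.45 and 51.63 to 52. These counts stand beside 8.48% of all genes higher and 8.60% lower by the same rule. Of 10 primitive endoderm genes 2 fell, the laminin genes Lama1 and Lamb1, with log2 changes of -1.11 and -1.42. The other 8 did not pass, and the median of the list was -0.02. Its sums were 54.85 to 56.31 in wild type and 53.15 to 53.19 in deficient cells. Of 7 neuroectoderm genes 1 rose and 1 fell, with sums of 41.35 to 41.94 and 41.15 to 41.92. In bulk RNA more cells of a type and more RNA per cell cannot be told apart, and the part of these lineage genes in the annexin values below was not tested.

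Most annexins were higher in Dicer-deficient cells, 1 was lower, and 3 genes did not pass the test. Besides Anxa3, the genes that rose were Anxa2, Anxa1, Anxa7, Anxa4 and Anxa5, 5 of the other 9, with log2 changes from 2.53 down to 0.51. Anxa6 fell by 1.61. Anxa8, Anxa11 and S100a10 did not pass. A gene was called when limma's adjusted p, over all 19938 genes, was under 0.05; by that rule 8.48% of all genes were higher and 8.60% were lower. The median log2 change was 0.505 over the 9 genes and 0.01 over all genes tested. Both deficient values lay above every wild-type value for 6 of these 9 genes and below for 1; over all genes the shares were 20.0% and 19.9%.

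**Figure D1:**
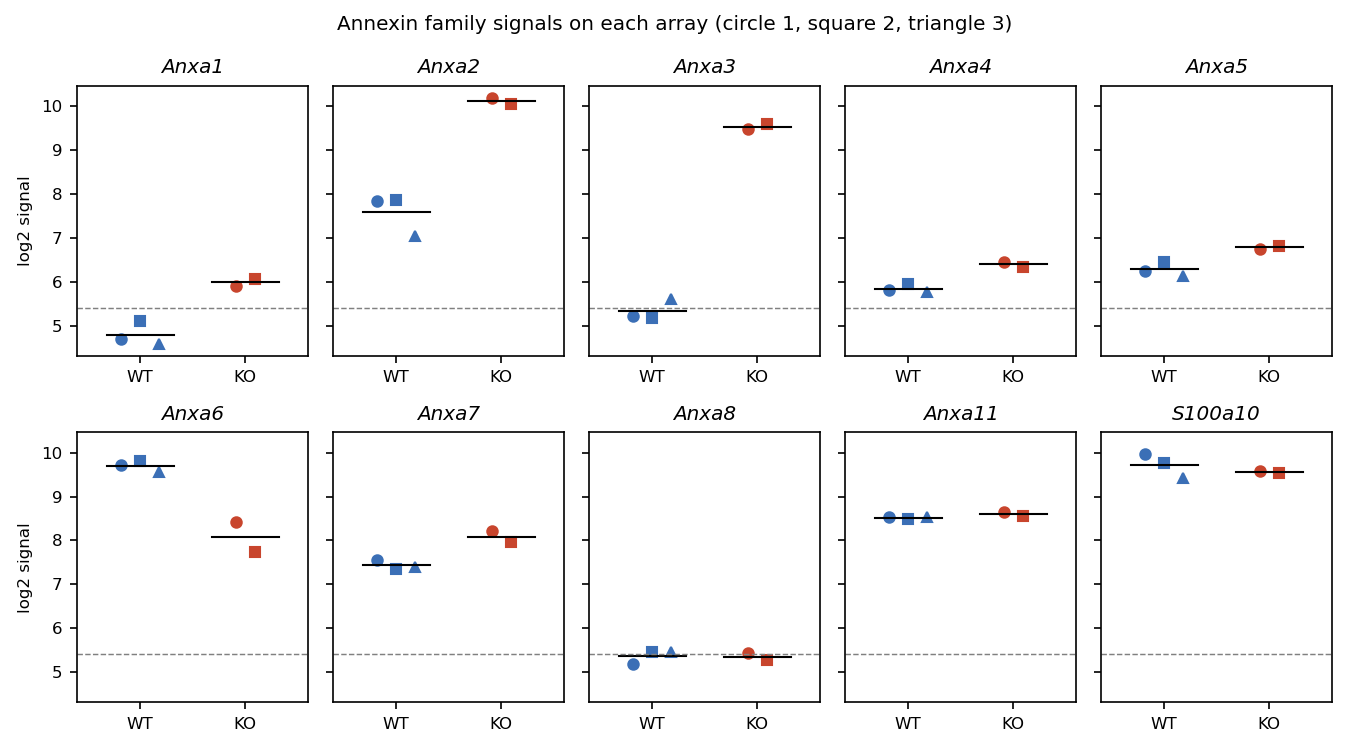
Log2 signal of each of the 10 genes on every array, wild type (WT, blue) and Dicer-deficient (KO, red); symbols give the array number, black bars the group mean and the dashed line the mean of the 5 array medians. The deficient arrays sit clear above wild type for Anxa1, Anxa2, Anxa3, Anxa4, Anxa5 and Anxa7, clear below for Anxa6, and overlap with wild type for Anxa8 and S100a10.

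Anxa3, an annexin abundant in neutrophils, had signals of 5.22, 5.18 and 5.61 on the wild-type arrays and 9.48 and 9.59 on the Dicer-deficient arrays. The wild-type values straddled the array medians, with arrays 1 and 2 below and array 3 above, so expression in wild-type cells was not established. The groups were 3.87 log2 units apart at their nearest values, and the difference of the means was 4.20, so large that it ranked first among the rises of all genes. No fold is given, because the lower signal has an uncertain size. With each array left out in turn the difference was 4.12 to 4.335, on the same arrays by which the gene was singled out. The genes whose pattern over the 5 arrays was most like that of Anxa3, by Euclidean distance after centring each gene on its mean, were Casq2 (distance 0.677 log2 units), Crybg3 (1.24), Tmem64 (1.38), Dpp4 (1.41) and Parva (1.51). The median distance over all genes was 4.60. Anxa2 stood 21st in that order, and this ranking rests on the same contrast that brought the family forward.

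Anxa2, which joins membranes to actin and carries S100a10, had signals of 7.84, 7.86 and 7.05 in wild-type cells and 10.18 and 10.04 in Dicer-deficient cells. Every one of these signals lay above the array median, and no deficient value came within 2.18 log2 units of a wild-type value. The group means were 7.58 ± 0.462 (SD, n = 3) and 10.11 ± 0.099 (SD, n = 2). This is a log2 change of 2.53 (SE, the standard error, 0.231), a 5.76-fold rise (limma adjusted p = 0.000465). Wild-type array 3 was the low one. Its distance from the others gave a wild-type range of 0.81, as wide or wider in only 0.226% of genes, and the change was 2.26 without that array. The call held without each array in turn, with the highest adjusted p, 0.0476, without Dicer-deficient array 1.

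Anxa1, once called lipocortin, had signals of 4.69, 5.11 and 4.59 in wild-type cells and 5.90 and 6.07 in Dicer-deficient cells. All 3 wild-type values lay under their array medians and both deficient values over theirs, with no overlap. The log2 change was 1.19 (SE 0.154, limma adjusted p = 0.00208); no fold is given, because the wild-type signal was not shown to be above background. The call was lost without Dicer-deficient array 1 (adjusted p = 0.065) or array 2 (0.0816), when the change was 1.27 and 1.10.

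The 2 genes with the largest tested rises, Anxa2 and Anxa1, both have the letters TATAAA shortly before the RefSeq start of transcription. The windows of Anxa4, Anxa5 and Anxa7, which also rose, have none, and a link of the motif to the changes was not tested. The 250 bases upstream of the start are shown for Anxa2 and Anxa1, and for Anxa11, whose signal did not pass the test. They are read 5′ to 3′ on the gene's strand from RefSeq's annotation of GRCm38.p6, and capitals mark matches to the motifs listed after them.
Anxa2, chr9:69453433-69453682, plus strand: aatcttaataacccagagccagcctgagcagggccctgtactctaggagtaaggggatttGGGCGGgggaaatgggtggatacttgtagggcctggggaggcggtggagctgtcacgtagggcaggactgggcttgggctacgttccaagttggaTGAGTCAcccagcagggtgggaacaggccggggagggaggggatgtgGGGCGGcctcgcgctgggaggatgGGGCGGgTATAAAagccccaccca
Anxa1, chr19:20390672-20390921, minus strand: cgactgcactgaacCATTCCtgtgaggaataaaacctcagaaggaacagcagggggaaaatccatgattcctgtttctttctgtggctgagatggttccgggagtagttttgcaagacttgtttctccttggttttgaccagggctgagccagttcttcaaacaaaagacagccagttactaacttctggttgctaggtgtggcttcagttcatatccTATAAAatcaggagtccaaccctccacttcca
Anxa11, chr14:25841905-25842154, plus strand: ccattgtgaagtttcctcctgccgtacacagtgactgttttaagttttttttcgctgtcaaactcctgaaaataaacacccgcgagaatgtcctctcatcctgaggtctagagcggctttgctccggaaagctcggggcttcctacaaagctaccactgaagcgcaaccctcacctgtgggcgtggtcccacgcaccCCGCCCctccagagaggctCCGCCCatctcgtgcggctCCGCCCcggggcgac

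The motifs were searched on both strands and did not overlap in these windows: TATAAA (the TATA box), GGGCGG (the GC box bound by Sp1), TGANTCA (the AP-1 element), GGAATG (bound by TEAD factors) and CCAAT. Promoter windows were at hand for 7 of the 10 genes, with 9 starts; Anxa3, Anxa6 and S100a10 were not among them. TATAAA stood 17 bases before the Anxa2 start and 32 bases before the Anxa1 start, counted from its first base, and in none of the other 7 windows; 12.4% of all 32851 upstream windows held it. The Anxa2 window also held 3 GC boxes and 1 AP-1 element, 95 bases upstream, which 32.7% and 6.75% of all windows hold. The Anxa1 window held 1 GGAATG, found in 12.6% of windows, and no GC box. The Anxa11 window held 3 GC boxes and none of the other motifs. For Anxa7, which rose, one window held 4 GC boxes and the other 1, again with none of the other motifs. The windows of Anxa4, Anxa5 and Anxa8 matched none of the 5 motifs, and CCAAT, present in 33.85% of all windows, was in no window of the family. Such matches describe letters and are not evidence of binding.

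CpG dinucleotides, which are dense in the promoters of widely expressed genes, numbered 2 in the Anxa1 window, 4 for Anxa8, 9 for Anxa2, 13 for Anxa5 and 17 for Anxa11, against a median of 6 over all windows. Anxa4 and Anxa7 each have a pair of annotated starts, one with 2 CpGs and one with 13 (Anxa4) or 16 (Anxa7). The genes that rose thus included windows with few and with many CpGs, and the array does not tell the starts apart.

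Anxa7, known as synexin and as a driver of membrane fusion in secretion, had signals of 7.55, 7.35 and 7.40 in wild-type cells and 8.22 and 7.96 in Dicer-deficient cells. The lowest deficient value was 0.41 above the highest wild-type value. Its log2 change of 0.66 (SE 0.107, 1.58-fold, limma adjusted p = 0.00544) was no longer called when Dicer-deficient array 1 was left out (0.53, adjusted p = 0.0871).

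Anxa4, an annexin of epithelial cells, had 5.82, 5.94 and 5.77 in wild-type cells and 6.46 and 6.34 in Dicer-deficient cells. The groups did not overlap, and the log2 change was 0.56 (SE 0.0881, 1.47-fold, limma adjusted p = 0.00484). It was not called when either deficient array was left out (adjusted p = 0.0826 and 0.0541). Anxa5, the phosphatidylserine-binding annexin, had 6.24, 6.46 and 6.14 in wild-type cells and 6.75 and 6.82 in Dicer-deficient cells. This was the smallest called rise in the family, 0.505 (SE 0.107, 1.42-fold, limma adjusted p = 0.0165), again with no overlap. Leaving out wild-type array 1 ended the call (adjusted p = 0.0766), as did leaving out deficient array 1 (0.142) or 2 (0.176).

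Anxa6, the largest annexin, with a doubled set of annexin repeats, went the other way. Its signals were 9.72, 9.80 and 9.56 in wild-type cells and 8.43 and 7.73 in Dicer-deficient cells, all above the array medians. Both deficient values lay at least 1.13 below every wild-type value. The log2 change was -1.61 (SE 0.189, limma adjusted p = 0.00134), a 3.06-fold lower level. The deficient arrays stood 0.70 apart, a gap matched or exceeded by 0.316% of genes, and the change was -1.96 without array 1 and -1.26 without array 2, called both times. A second, dimmer probe set for Anxa6 had 5.90, 5.90 and 6.17 in wild-type cells and 5.90 and 5.76 in Dicer-deficient cells. There the groups touched, and the log2 change was -0.16 (95% interval -0.45 to 0.13; limma adjusted p = 0.537 over all 35556 probe sets). The probe sets therefore disagreed in size, and their mean gave a change of -0.89 (adjusted p = 0.0027).

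**Figure D2:**
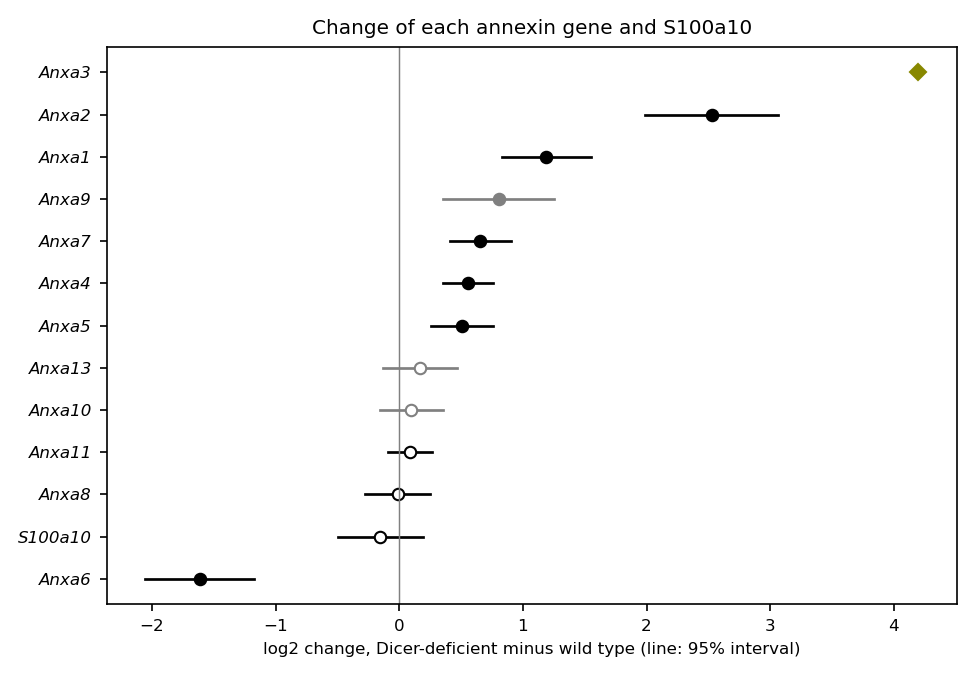
Log2 change (Dicer-deficient minus wild type) of each annexin gene and S100a10, with limma's 95% interval as a line; filled points were called, open points were not, grey points are the annexins outside the list of 10 genes, and the diamond is Anxa3, given without a test. Changes run from -1.61 for Anxa6 to 4.20 for Anxa3, and the intervals of S100a10, Anxa8, Anxa11, Anxa10 and Anxa13 cross 0.

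S100a10, the partner that annexin A2 protects from degradation, did not rise with it. Its signals were 9.96, 9.76 and 9.42 in wild-type cells and 9.58 and 9.54 in Dicer-deficient cells. The deficient values lay inside the wild-type range, whose low end was again array 3. The log2 change was -0.15 (95% interval -0.50 to 0.19; limma adjusted p = 0.609), from -0.30 without wild-type array 3 to -0.03 without array 1. Within each array, the Anxa2 signal relative to S100a10 was higher in deficient cells by 2.68 log2 units on average, and by at least 2.40 between any deficient and any wild-type array; this shows unequal change of the 2 transcripts and was not tested further.

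Anxa11, which tethers RNA granules to lysosomes, had close signals on all arrays: 8.53, 8.48 and 8.53 in wild-type cells and 8.65 and 8.55 in Dicer-deficient cells. The deficient values lay just above the wild-type values, by 0.02 at the nearest. The log2 change was 0.09 (95% interval -0.09 to 0.27; limma adjusted p = 0.576). Anxa8, an annexin of squamous epithelia, had 5.18, 5.46 and 5.46 in wild-type cells and 5.44 and 5.27 in Dicer-deficient cells. These values overlapped and lay around the array medians, so they were not shown to be above background. The log2 change was -0.01 (95% interval -0.27 to 0.25; limma adjusted p = 0.968).

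**Figure D3:**
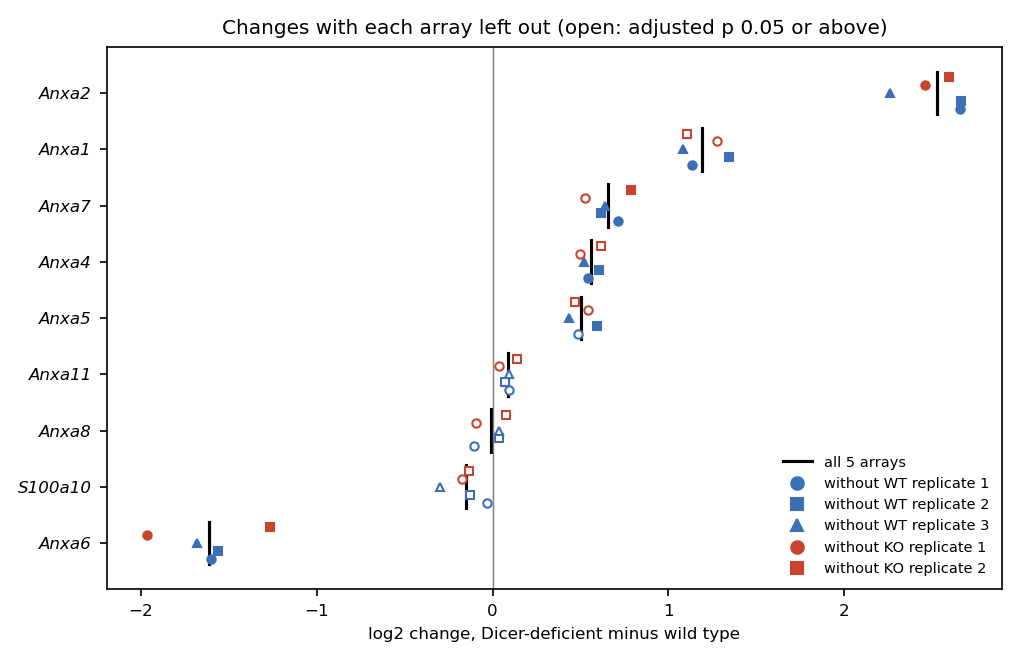
Log2 change of the 9 tested genes with all 5 arrays (black bar) and with each array left out (blue, a wild-type array; red, a Dicer-deficient array); open symbols had an adjusted p of 0.05 or above. Anxa2 and Anxa6 keep filled symbols throughout, while Anxa1, Anxa4, Anxa5 and Anxa7 have open ones when a deficient array is left out.

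The 10 genes lie on 7 chromosomes, by gene identifier in RefSeq's GRCm38.p6 table. Anxa7, Anxa8 and Anxa11 are on chromosome 14, and Anxa5 and S100a10 are on chromosome 3. Chromosome 14 held many lower genes, 138 of 699, against 41 higher. Over all genes 8.60% were lower and 8.48% higher, shares that also stand beside the neighbour counts that follow. Of the 20 nearest measured genes around Anxa7, 3 were lower and the others did not pass, with a median log2 change of -0.05; its immediate neighbours Cfap70 and Mss51 had 0.105 and -0.10 (limma adjusted p = 0.501 and 0.598). None of these 20 genes was called higher, and a link between the change of Anxa7 and its neighbours was not tested. Around Anxa8, 1 of 20 was higher, with a median of 0.03, and Antxrl and Npy4r next to it had -0.015 and -0.09 (adjusted p = 0.94 and 0.674). Around Anxa11, 2 were higher and 1 lower, with a median of 0.06, and Zcchc24 and 4933413J09Rik had -0.38 and 0.11 (adjusted p = 0.1335 and 0.629).

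The annexins outside the list were dim. Anxa9 had 3.81, 4.39 and 4.10 in wild-type cells and 5.15 and 4.66 in Dicer-deficient cells, all below the array medians. It rose by 0.805 (limma adjusted p = 0.0268), a call lost without wild-type array 1 (0.101) or array 3 (0.103) or without deficient array 1 (0.2955) or array 2 (0.0966). Anxa10 and Anxa13 had changes of 0.10 and 0.17 (adjusted p = 0.668 and 0.493).

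Of 15 other S100 proteins, 1 rose and 14 did not pass the test, with a median log2 change of 0.02; by the same rule 8.48% of all genes rose. The one that rose was S100a11, a calcium-binding partner of annexins A1 and A2, with 9.60, 9.36 and 9.29 in wild-type cells and 10.41 and 10.25 in Dicer-deficient cells. Its values did not overlap, and the change of 0.91 (1.88-fold, limma adjusted p = 0.00162) had an adjusted p of 0.0631 without Dicer-deficient array 1. S100a6, another annexin-binding S100 protein, named after its value was seen, had a change of 0.38 (adjusted p = 0.238).

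Of 16 measured annexin partners, 2 rose, beside 8.48% of all genes, and 14 did not pass, with a median of 0.15. Ahnak, a giant scaffold that binds the complex of annexin A2 and S100a10, had 7.74, 7.44 and 7.34 in wild-type cells and 8.17 and 8.19 in Dicer-deficient cells. It rose 1.59-fold (limma adjusted p = 0.00856), a call lost without wild-type array 2 (0.06285) or either deficient array (0.132 and 0.1325). Hltf, a chromatin remodeller that binds the same complex, rose 1.57-fold (adjusted p = 0.0145), a call lost without wild-type array 2 (0.0521) or deficient array 1 (0.146) or 2 (0.191).

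Of 7 genes of plasminogen activation at the cell surface, 1 rose, beside 8.48% of all genes, and 6 did not pass, with a median of 0.03. That one was Plaur, the urokinase receptor, with 6.83, 6.67 and 6.48 in wild-type cells and 8.56 and 9.19 in Dicer-deficient cells. Its log2 change of 2.215 (4.64-fold, limma adjusted p = 0.000329) was called without each array in turn. The activators Plau and Plat, also named after their values were seen, had changes of 0.045 and -0.08 (adjusted p = 0.787 and 0.676) on signals below the array medians.

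Among 14 copines and ferlins, other calcium-dependent membrane proteins, Cpne3 rose by 0.77 (limma adjusted p = 0.00449), a call lost without deficient array 1 (0.1055) or 2 (0.0891), and 13 did not pass; the median was 0.05. Of 17 membrane repair genes 5 rose and 12 did not pass, with a median of 0.19. The counts of both lists stand beside 8.48% of all genes higher by the same rule, and no list was tested as a set. Capn2, the catalytic subunit of m-calpain, had 5.78, 6.04 and 5.24 in wild-type cells and 6.87 and 7.78 in Dicer-deficient cells, a change of 1.64 (adjusted p = 0.00851). That call was lost without wild-type array 1 (0.0553) or deficient array 1 (0.0509) or 2 (0.1385). Capns1, the regulatory subunit of both calpains, rose by 0.47 (adjusted p = 0.00454), a call lost without deficient array 1 (0.0542) or 2 (0.0523). The membrane-remodelling ATPases Ehd1 and Ehd2 rose by 0.64 and 0.51 (adjusted p = 0.00476 and 0.0419), Ehd2 on signals below every array median. Ehd1 lost its call without deficient array 1 (0.0957) or 2 (0.082). Ehd2 was not called when wild-type array 2 (0.161) or 3 (0.137) or deficient array 1 (0.241) or 2 (0.305) was left out. The ESCRT subunit Chmp3, named after its value was seen to complete the count, rose by 0.42 (adjusted p = 0.0305), lost without wild-type array 1 (0.0836) or 2 (0.124) or deficient array 1 (0.185) or 2 (0.229).

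**Figure D4:**
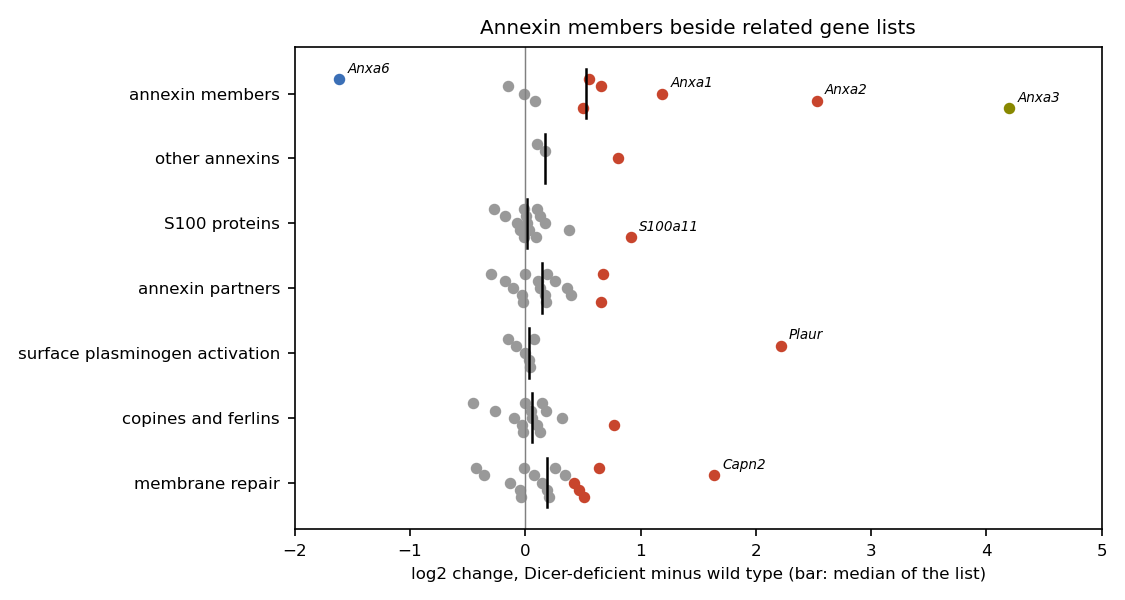
Log2 change of every measured gene in the annexin list and in 6 related lists; red points were called higher, blue lower, grey not called, olive is Anxa3, given without a test, and black bars are list medians. The annexin median, 0.53, includes Anxa3, on whose rise the family was chosen, and is not to be ranked against the other lists; Plaur and Capn2 are the furthest points outside the annexins.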

How the data were processed

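RNA of 3 wild-type and 2 Dicer-deficient ES cell cultures was labelled with biotin and measured on Affymetrix whole-transcript arrays, 1 array each, per the labels' protocols. The authors deposited 1 table of 35556 probe sets, read here as normalized log2 signals from its range and its near-equal array medians; background correction, summarisation and normalization are not given in the sources used here. Titles gave the groups. The platform annotation, which can be old, gave 1 symbol to 21789 probe sets, several to 1621 and none to 12146; only those with 1 were named. For each of 19938 genes the probe set with the highest mean was fitted with limma 3.58.1 in R 4.3.3 (lmFit, eBayes; no covariate; 3 residual and 4.54 prior degrees of freedom), with Benjamini-Hochberg adjustment over all genes and a threshold of 0.05. The fitting code was also run on simulated data with known changes, drawn from limma's own fitted variances. That run checks the code and not the behaviour of these arrays. Tables and plots used Python 3.11.15. Members and lists were chosen with earlier results of these data known. Named are all members, the 5 nearest genes to Anxa3, neighbours on chromosome 14, and up to 4 called genes in each list; S100a6, Plau, Plat, Chmp3 and the lineage marker genes named singly were chosen after their values were seen. The alternatives are given in the closing section.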

Additional observations from a re-analysis of the deposited data

How the results depend on the processing

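The 3 genes that did not pass the test, Anxa8, Anxa11 and S100a10, stayed uncalled under every alternative that tested them. Anxa2 kept its call and direction under each of them. With a minimum change of 2-fold, 2 of the 9 tested family genes were higher and 1, Anxa6, was lower, and over all genes 307 were higher and 151 lower. The replicate number as a block (the labels number arrays 1 and 2 in both groups, with no stated pairing) left 1 residual degree of freedom and gave 3 higher and 0 lower by limma. At an unadjusted p under 0.05 there were 5 and 2, the lower ones being Anxa6 and S100a10 (log2 change -0.30, limma adjusted p = 0.133 for S100a10). The share of all genes at that unadjusted level was not computed, so these counts have no yardstick. Under the block 477 genes in all were higher and 417 lower, against 1690 and 1714 without it, and Anxa6, Anxa4 and Anxa5 had adjusted p = 0.061, 0.0818 and 0.08. The deviations of arrays with the same number correlated at 0.0492 and 0.0053 over genes. Wild-type array 3 and deficient array 2, numbered differently, had 0.0402. With only 2 deficient arrays, the deviations of array 1 mirror those of array 2, so these correlations cannot settle the pairing. Leaving out each array gave 1 to 5 family genes higher, and 536 to 1396 genes higher and 434 to 1560 lower in all; fewer arrays were fitted, and without a deficient array the lone one is assumed to vary like wild type. Anxa8 changed sign, at 0.035 under the block and from -0.105 to 0.0733 over the arrays left out. Testing all probe sets took the call from Anxa5 (adjusted p = 0.0624). Leaving out dim genes removed Anxa1 and Anxa8. Quantile normalization again, median centring, an intensity trend, robust moderation and averaging probe sets per gene changed no call among the 9 genes. The leave-one-array-out values of Dicer1 and of genes outside the family were added after the data were seen. No depth is known for arrays; signals near or below the array median, as of Anxa1, Anxa3 and Anxa8, limit the sizes given.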
